A study of Mus musculus with 16 samples.

Results

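The Sprouty, Spred, Etv and Phlda1 transcripts, which are known to be induced by the ERK pathway, were examined in dorsal skin RNA of mutant and control mice. In mutants labelled K14-cre; Gab1fl, Gab1 is targeted in keratin 14 positive cells. The set was defined by name as Spry1, Spry2, Spry4, Spred1, Spred2, Spred3, Etv1, Etv4, Etv5 and Phlda1, and every probe that the platform annotation assigns to these symbols was taken. This gave 14 of 25697 probes, for 10 genes. Of these, 9 probes for 8 genes were tested, because they were above background (detection p below 0.05) on at least 7 of 16 arrays, and the 5 others, among them the only probes of Spry2 and Spred3, are given by their detection alone.

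Labels assign 7 arrays to mutants of genotype K14-cre; Gab1fl and 9 arrays to control mice, all 15 days old, on a mixed C57/BL6;129Ola background and with dorsal skin given as the tissue. In K14-cre mice the keratin 14 promoter drives Cre in basal keratinocytes and their follicle counterparts, and dermal, vascular and immune cells are not targeted. The labels do not give the zygosity of the floxed allele or the alleles of the controls. The design text speaks of a sort on integrin alpha 6, the tissue labels name skin only, and markers of dermal fibroblasts (8 of 8 genes tested) and endothelium (6 of 8) were measured beside those of basal keratinocytes (6 of 6).

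The arrays fell into 5 sets of near-identical profiles, with correlations of 0.994 to 0.996 within a set, 0.935 to 0.936 between the mutant sets and 0.961 to 0.986 between the control sets. Each set is counted as 1 sample and called a source: mutant source 1 (3 arrays), mutant source 2 (4 arrays) and control sources 1 to 3 (3 arrays each), every one of them spread over both slides. The labels do not say whether a source is 1 animal or a pool, so the p-values measure only the spread between these 5 sources. Median raw signal per array was 175.9 to 223.5, and 13406 to 14636 probes were detected per array. Gab1 itself, read by 1 probe whose place relative to the floxed part is unstated, had a log2 level of 11.65 ± 0.44 over the mutant sources (SD, n = 2) and of 12.69 ± 0.01 over the control sources (SD, n = 3), which is 48.9% of the control level, with no overlap of arrays.

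Receptor tyrosine kinases activate ERK through adaptors such as Gab1, which binds the phosphatase Shp2 and sustains Ras activity. Active ERK switches on genes that restrain the same pathway: Sprouty proteins act between the receptor and Raf, and Spred proteins bring the Ras inhibitor neurofibromin to the membrane. The ETS factors Etv1, Etv4 and Etv5, the PEA3 group, carry the transcriptional response to FGF and ERK, and are kept low by the repressor Capicua until ERK inactivates it. In skin, FGF and EGF receptor signals through this route act in follicle growth and in the balance of keratinocyte division and differentiation.

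Sequences upstream of the start sites of Etv1, Etv5 and Spred2 are shown because Etv1 and Spred2 were lower in both mutant sources and Etv5 was not. They come from RefSeq (GRCm38.p6), which matched 7 of the 10 genes with 9 start sites (Spred1, Spry1, Spred3, Spred2, Etv1, Spry2 and Etv5, with Etv1 and Etv5 having 2 each). Each is the 250 bases before a start, 5′ to 3′ on the gene's strand, and capitals mark matches on either strand to TGAATGA or TGAATGG (the first 7 letters of the Capicua octamers TGAATGAA and TGAATGGA), CGGAAG (ETS), TGACGT (CRE) or TGANTCA (AP-1), none of which overlap here.
Etv1, first start, GRCm38.p6 chr12:38779832-38780081, plus strand: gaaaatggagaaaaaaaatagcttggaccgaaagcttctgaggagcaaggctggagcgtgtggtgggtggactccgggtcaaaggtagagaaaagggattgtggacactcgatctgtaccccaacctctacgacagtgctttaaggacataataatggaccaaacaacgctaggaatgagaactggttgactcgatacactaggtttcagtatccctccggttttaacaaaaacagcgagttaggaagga
Etv1, second start, GRCm38.p6 chr12:38783461-38783710, plus strand: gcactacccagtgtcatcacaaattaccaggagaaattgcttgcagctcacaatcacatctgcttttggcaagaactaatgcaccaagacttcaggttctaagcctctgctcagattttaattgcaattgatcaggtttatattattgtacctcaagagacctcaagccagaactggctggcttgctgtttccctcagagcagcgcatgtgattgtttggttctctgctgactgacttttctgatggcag
Etv5, first start, GRCm38.p6 chr16:22439571-22439820, minus strand: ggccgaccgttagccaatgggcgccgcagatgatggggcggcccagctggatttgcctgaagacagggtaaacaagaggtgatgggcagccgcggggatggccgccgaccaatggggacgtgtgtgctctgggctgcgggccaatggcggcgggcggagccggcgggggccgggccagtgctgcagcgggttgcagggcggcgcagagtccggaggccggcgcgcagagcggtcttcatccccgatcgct
Etv5, second start, GRCm38.p6 chr16:22438369-22438618, minus strand: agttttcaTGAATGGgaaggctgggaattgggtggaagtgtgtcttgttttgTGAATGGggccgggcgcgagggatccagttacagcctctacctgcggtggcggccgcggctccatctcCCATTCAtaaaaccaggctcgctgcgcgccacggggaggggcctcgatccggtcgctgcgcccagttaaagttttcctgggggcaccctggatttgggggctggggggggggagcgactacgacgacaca
Spred2, GRCm38.p6 chr11:19924192-19924441, plus strand: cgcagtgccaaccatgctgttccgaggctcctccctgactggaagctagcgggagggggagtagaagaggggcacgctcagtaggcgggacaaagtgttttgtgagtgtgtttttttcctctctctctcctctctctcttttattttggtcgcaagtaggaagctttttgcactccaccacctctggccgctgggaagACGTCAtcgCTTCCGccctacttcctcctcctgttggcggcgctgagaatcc
The second Etv5 start held 3 matches to TGAATGG, at 242 to 236 and 198 to 192 bases before the start on the gene's strand and at 130 to 124 bases on the other strand, and the first Etv5 start held none of the motifs. Each of the 3 matches is followed by G on its own strand, so that neither Etv5 window held TGAATGAA or TGAATGGA, the only octamer forms searched. Spred2 held CGGAAG and TGACGT, both on the other strand, at 43 to 38 and 52 to 47 bases before its start. None of these motifs was in either Etv1 window. Over the 9 windows, the first 7 letters of a Capicua octamer lay in 2 (Etv5 and Spred3) and a whole octamer in 1 (Spred3), CGGAAG in 2 (Spred1 and Spred2), TGACGT in 1 and TGANTCA in 0, while among all 32851 windows of this length 5.93% held those 7 letters, 2.07% a whole octamer, 13.6% CGGAAG, 6.47% TGACGT and 6.75% TGANTCA. A match describes the letters and not binding.

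Of the 8 genes tested, Etv1, Spry4 and Spred2 lay below all control sources in both mutant sources, Phlda1 lay above them, and Spry1, Spred1, Etv4 and Etv5 overlapped. Over all 10013 genes tested, 15.3% were lower and 14.1% higher by the same criterion. None of the 9 member probes passed the limma threshold of an adjusted p of 0.05, against 8 of 14504 probes (0.0552%) over the whole table, a count that was 0 without control array 2, 4 or 6 and without any 1 of the 5 sources. At an unadjusted p below 0.05 the member probes numbered 4 of 9, against 12.1% of all probes. Of the 4, 2 are the Etv1 probes, which passed the detection filter only through the control arrays and were above background on 0 and 1 of 7 mutant arrays, and the others are those of Spry4 and Phlda1. The median difference of the 8 genes was -0.0052 on the log2 scale, beside 0.0025 over all genes tested.

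**Figure D1:**
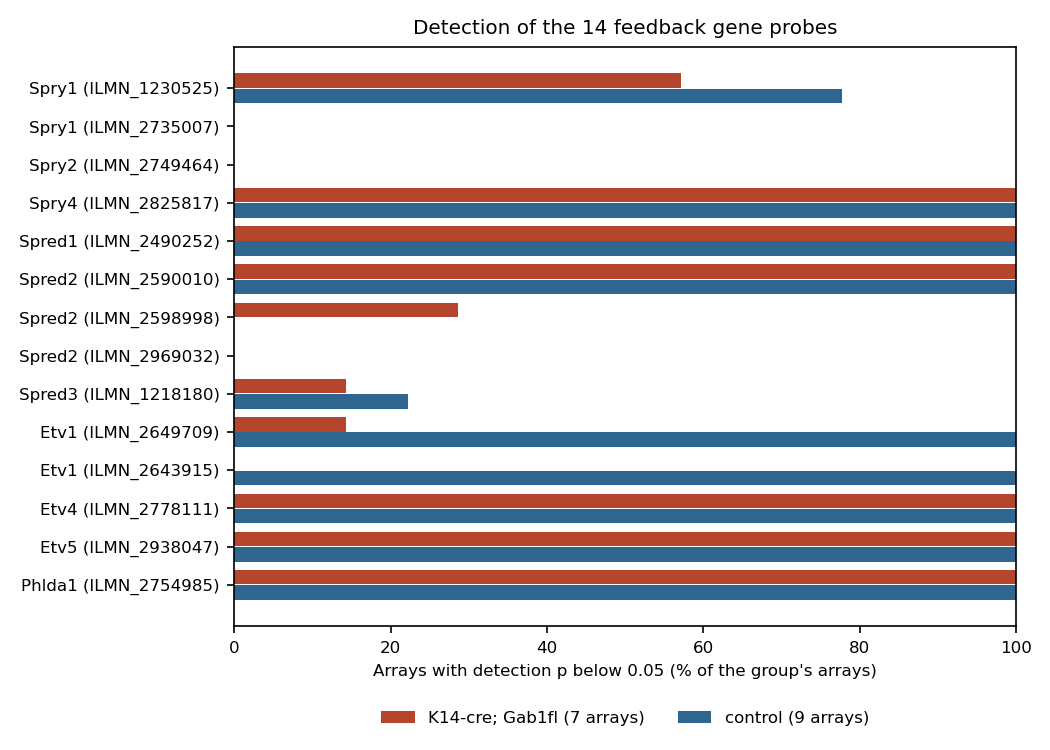
Share of arrays in each group with a detection p below 0.05 (x axis, percent of 7 mutant or 9 control arrays) for each of the 14 probes (y axis), with mutant bars in red above control bars in blue. Both Etv1 probes were detected on all 9 control arrays and on 0 or 1 mutant arrays, and the Spry2 probe on none.

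Detection differed widely within the set. Spry4, Spred1, Etv4, Etv5, Phlda1 and 1 Spred2 probe were above background on all 16 arrays, and 1 Spry1 probe (ILMN_1230525) on 4 of 7 mutant and 7 of 9 control arrays. The probes of Spry2 and the second Spry1 probe (ILMN_2735007) were above background on 0 of 16 arrays, so that no level can be given for Spry2, a Sprouty of developing epithelia. Spred3 was above background on 1 of 7 mutant and 2 of 9 control arrays. The other Spred2 probes were detected on 2 mutant and 0 control arrays (ILMN_2598998) and on no array (ILMN_2969032).

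Among the Sprouty inhibitors, Spry4 was lower in both mutant sources. Its log2 signal on single arrays was 6.40 at the lowest, 7.24 at the median and 7.47 at the highest in the mutant, and 7.27, 7.73 and 8.29 in the control. The arrays overlapped narrowly, while the sources did not: mutant source 1 stood at 6.87 and mutant source 2 at 7.27, against 7.51, 7.66 and 8.19 in control sources 1, 2 and 3. The gap between mutant source 2 and control source 1 was no larger than the SD of 0.26 between arrays of a source. Spry4 differed by -0.72 (SE 0.28, 95% interval -1.42 to -0.01, limma adjusted p = 0.406). Within slide 1 it differed by -0.75 and within slide 2 by -0.70, and without background correction by -0.41.

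Spry1, the Sprouty best known from kidney and genital tract development, did not separate the groups. Mutant arrays ran between 5.59 and 6.61 (median 6.10) and control arrays between 5.43 and 6.40 (median 6.16). Mutant source 1 was the highest source at 6.33 and mutant source 2 the lowest at 5.82, with the control sources at 5.92, 6.08 and 5.99. The difference was 0.08 (95% interval -0.45 to 0.61, limma adjusted p = 0.929), and the SD between arrays of a source, 0.36, was the widest of the 9 tested probes.

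Spred1, a Ras inhibitor whose human counterpart is mutated in Legius syndrome, was the steadiest member. Its arrays ran between 10.97 and 11.22 (median 11.12) in the mutant and between 11.00 and 11.20 (median 11.09) in the control. The 5 source means spanned 0.12, a range that only 0.876% of tested probes undercut, and the difference was -0.00068 (SE 0.14, 95% interval -0.35 to 0.35, limma adjusted p = 0.999).

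Spred2, which acts in the same way, was lower in the mutant mainly through 1 source. Its detected probe (ILMN_2590010) read 6.00 to 7.01 (median 6.19) on mutant arrays and 6.81 to 7.29 (median 6.99) on control arrays. Mutant source 2 stood at 6.10 and apart from all others, whereas mutant source 1 at 6.85 lay next to control source 3 at 6.94 and control source 1 at 6.97, within the SD of 0.15 between arrays of a source; control source 2 stood at 7.23. The difference was -0.57 (SE 0.28, 95% interval -1.27 to 0.13, limma adjusted p = 0.496). Leaving out mutant source 1 gave -0.95 and leaving out mutant source 2 gave -0.19, and omitting the background correction gave -0.26. Without mutant array 1 or control array 7 Spred2 no longer separated the groups. It differed by -0.57 within slide 1 and -0.60 within slide 2, where the sources overlapped.

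**Figure D2:**
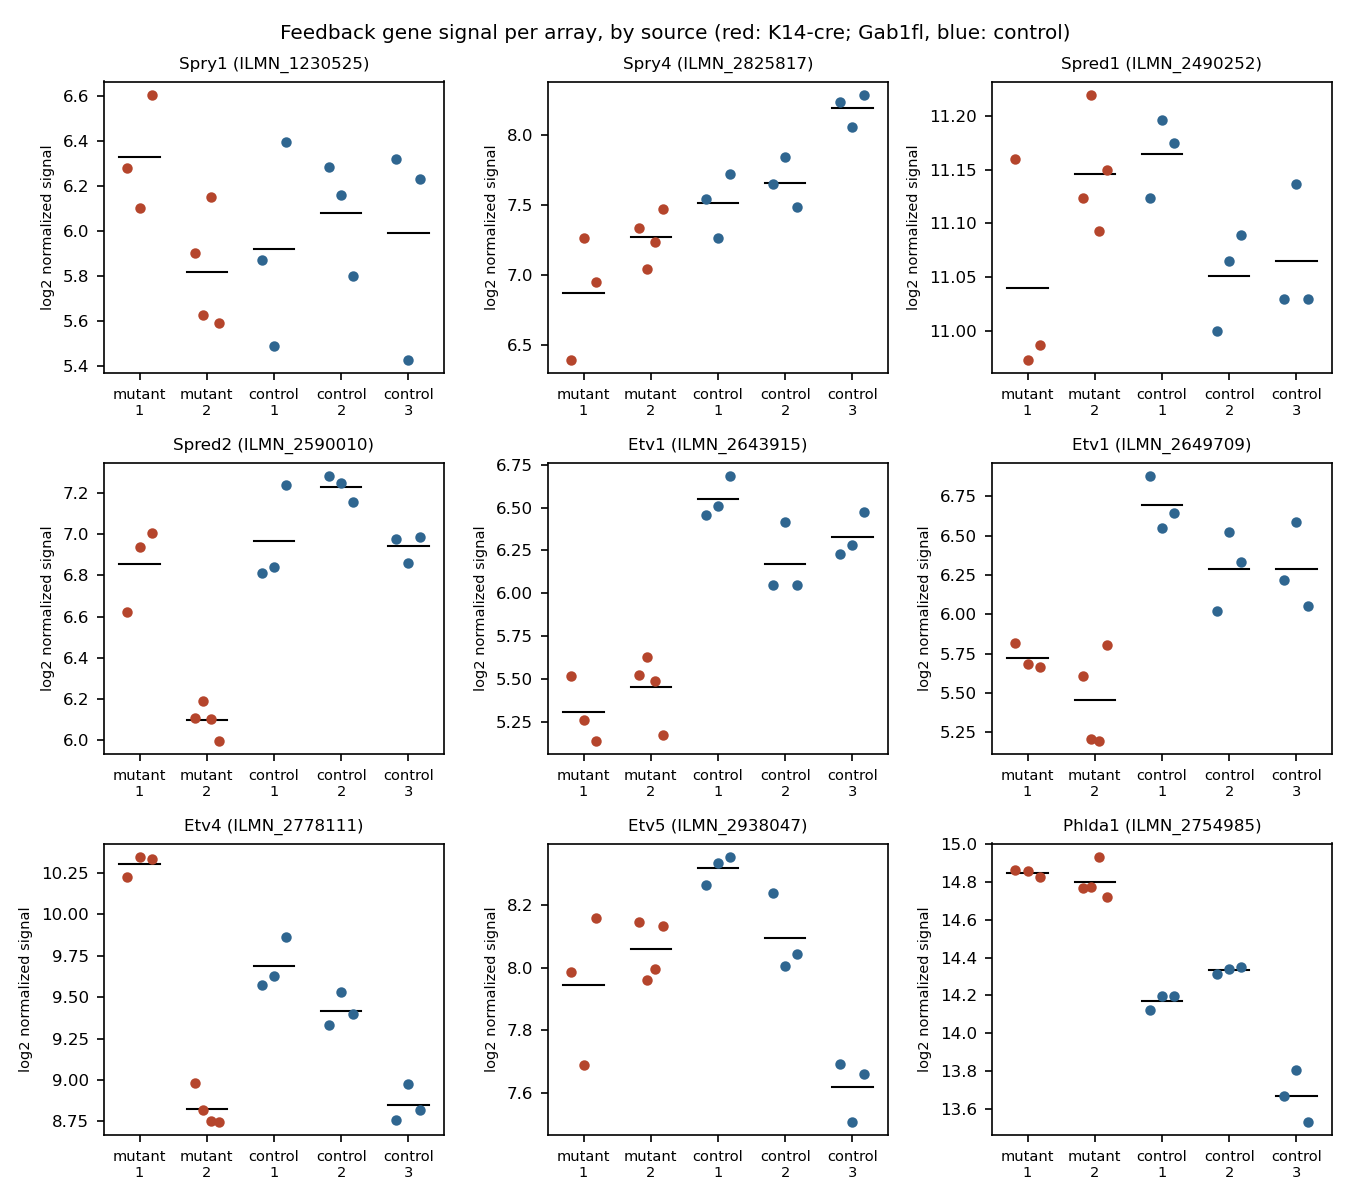
Log2 normalized signal (y axis, scaled per panel) of each tested probe on every array, grouped by source (x axis), with mutant arrays in red, control arrays in blue and source means as black lines. Etv1 and Phlda1 arrays did not overlap between the groups, and Etv4 stood at 10.30 in mutant source 1 but 8.83 in mutant source 2.

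Etv1, a PEA3 factor, had lower signal in both mutant sources, by an amount that can only be bounded. Probe ILMN_2643915 read 5.14 to 5.63 (median 5.49) on mutant arrays and 6.05 to 6.69 (median 6.42) on control arrays. Every mutant array lay below every control array, as it did for 6.54% of all tested probes. Mutant sources 1 and 2 stood at 5.31 and 5.45, and control sources 1, 2 and 3 at 6.55, 6.17 and 6.33. The probe was above background on 0 of 7 mutant and 9 of 9 control arrays, so that its mutant level is only bounded. On the background-corrected scale used here, Etv1 was at least 1.40-fold lower in the mutant (measured means 5.38 ± 0.10, SD, n = 2, and 6.35 ± 0.19, SD, n = 3; limma adjusted p = 0.239). This bound depends on the correction, without which the measured log2 difference was -0.37.

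The second Etv1 probe (ILMN_2649709) ran the same way. It read 5.20 to 5.82 (median 5.66) on mutant arrays and 6.02 to 6.88 (median 6.52) on control arrays, again without overlap. It was above background on 1 of 7 mutant arrays and 9 of 9 control arrays, so that the size of its difference rests on mutant signals near background and is not given as a fold. With mutant signals this dim, both probes passed the filter on dim probes only through the control arrays. Had the control arrays been as dim, neither probe would have been tested, so that their place among the lower genes carries no further weight. With no overlap over all arrays, the groups were bound to stay apart within slide 1 and within slide 2 for both probes, which adds no support. Without background correction the probes differed by only -0.37 (ILMN_2643915) and -0.32 (ILMN_2649709).

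Etv4, the second PEA3 factor, differed between the mutant sources rather than between the groups. Mutant arrays read 8.75 to 10.35 (median 8.98) and control arrays 8.76 to 9.86 (median 9.40). Mutant source 1 was the highest of all sources at 10.30 and mutant source 2 the lowest at 8.83, with control sources 1, 2 and 3 between them at 9.69, 9.42 and 8.85. The mutant sources thus stood 2.78-fold apart, a log2 gap of 1.48 beside an SD of 0.11 between arrays of a source, and 93.7% of tested probes had a smaller gap. The difference between the groups was 0.24 (SE 0.49, 95% interval -0.99 to 1.48, limma adjusted p = 0.898), but it came to -0.49 when mutant source 1 was left out and to 0.98 when mutant source 2 was.

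Etv5, the remaining PEA3 factor, which acts in stem cells of several tissues, overlapped throughout. Its arrays ran between 7.69 and 8.16 (median 8.00) in the mutant and between 7.51 and 8.35 (median 8.04) in the control. Mutant sources 1 and 2 stood at 7.94 and 8.06, inside the span of control sources 1, 2 and 3 at 8.32, 8.10 and 7.62. The difference was -0.01 (SE 0.26, 95% interval -0.66 to 0.65, limma adjusted p = 0.995).

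Phlda1, a protein with a pleckstrin homology-like domain that growth factors induce and that marks bulge stem cells in human hair follicles, was the only member higher in both mutant sources. Its arrays read 14.72 to 14.93 (median 14.82) in the mutant and 13.53 to 14.35 (median 14.20) in the control. The groups did not overlap, as 6.13% of all tested probes did not in this direction. Mutant sources 1 and 2 were nearly level at 14.85 and 14.80, whereas control sources 1, 2 and 3 stood at 14.17, 14.33 and 13.67. The mutant level was 1.70-fold the control level, a log2 difference of 0.76 (SE 0.21, 95% interval 0.24 to 1.29, limma adjusted p = 0.310). It was 0.77 within slide 1, 0.75 within slide 2 and 0.57 without control source 3, the lowest control. With no overlap over all arrays, the difference was bound to stay positive in each of these, which adds no support.

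**Figure D3:**
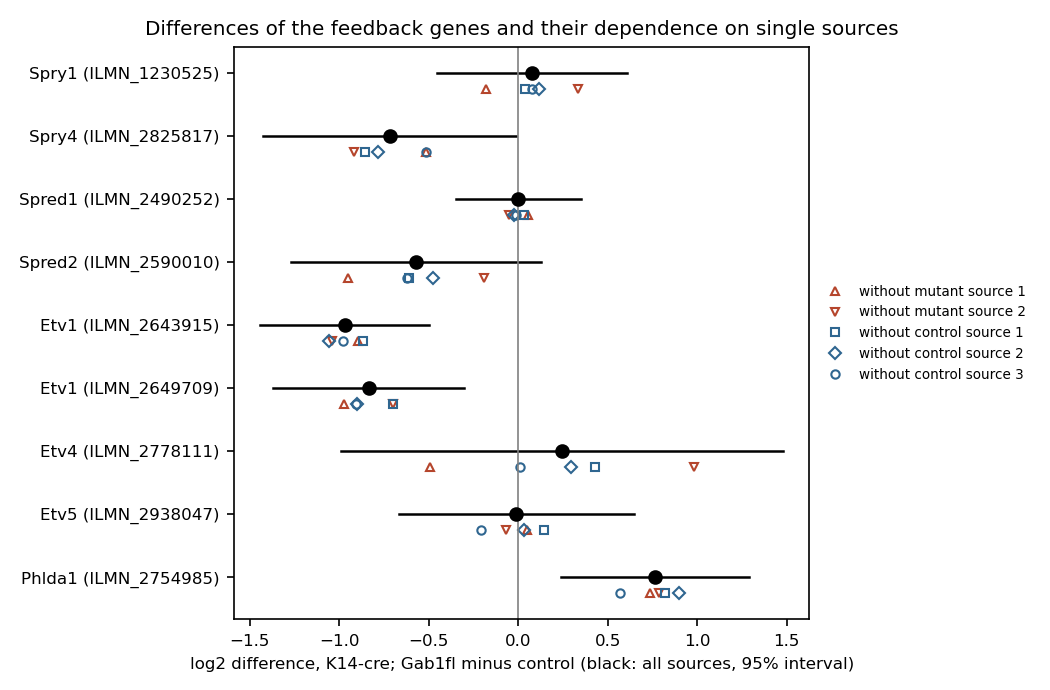
Log2 difference of mutant minus control (x axis) for each tested probe (y axis, both Etv1 probes being above background on 0 or 1 mutant arrays), as black points with 95% intervals over all 5 sources and as open symbols with 1 source left out. Etv1, Spry4, Spred2 and Phlda1 kept their side of 0 under each omission, as separated source means must, while Etv4 ran between -0.49 and 0.98.

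Leaving out single sources showed which members rested on which samples. Etv1, Spry4 and Spred2 stayed lower and Phlda1 stayed higher than the remaining control sources under each of the 5 omissions. Source means that lie apart must stay apart with fewer sources, so that this adds no support. Without mutant source 1, Etv4 and Spry1 were lower as well, giving 5 lower genes, and without mutant source 2 they were higher, giving 3 higher genes with Phlda1, while Spred1 joined the lower ones. Without control source 3, Etv5 was lower too. Counting the 16 arrays as separate samples, which ignores that arrays of a source are near copies, 5 member probes passed (those of Spry4, Spred2, Phlda1 and both of Etv1), against 33.9% of all probes. With the source as a random block over 16 arrays 1 member probe passed, that of Phlda1 (limma adjusted p = 0.00622), against 6.09% of all probes. With source and slide averages, the slide as a block and the source as a random block, Phlda1 passed too (limma adjusted p = 0.0314), against 2.28% of all probes. Over all alternatives the limma adjusted p of Phlda1 lay between 6.6e-05 and 0.936.

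Genes nearest in profile were sought for the 3 members with the widest range over the sources, by the root mean square distance between their 5 source means, each centred on the gene's own mean. For Etv4 these were Sars2, a mitochondrial seryl-tRNA synthetase (0.054), BC055324 (0.056) and the helicase Rtel1 (0.061), beside a median distance of 0.59 over all 10012 other genes. For Spry4 they were Lims2, an adaptor of focal adhesions (0.056), Cdh13, the cadherin of vascular and other cells (0.075), and the kinase Prkd2 (0.076), beside a median of 0.52. For Etv1, with mutant signals near background, they were Rep15 (0.058), the magnesium channel Trpm6 (0.087) and Bcas3 (0.091), beside a median of 0.51. With 5 sources and this many genes some near profiles are always present.

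**Figure D4:**
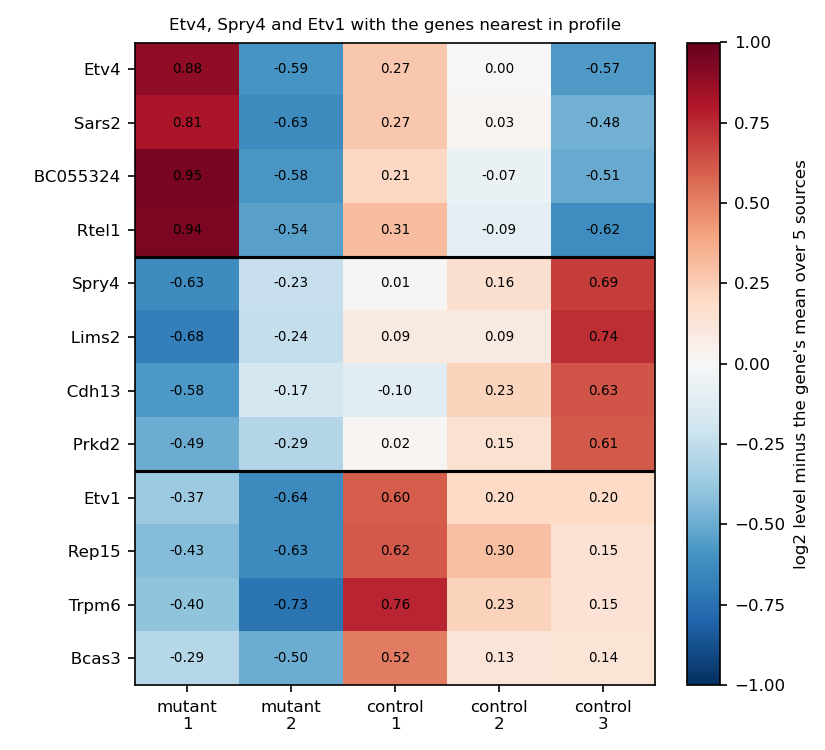
Log2 level of Etv4, Spry4 and Etv1 and of the 3 genes nearest to each (rows) in the 5 sources (columns), as the deviation from each gene's mean (colour and printed value). Etv4 and its neighbours were highest in mutant source 1 and low in mutant source 2 and control source 3, and Spry4 and its neighbours were highest in control source 3.

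Markers of other cells moved with some of these genes. Counts of lower and higher markers use the same criterion as for the members, which 15.3% and 14.1% of all genes met. The summed signal of the endothelial list (6 of 8 genes tested, 4 lower and 0 higher) was 13.52 and 13.66 on the log2 scale in mutant sources 1 and 2 and 14.03, 14.45 and 15.15 in control sources 1, 2 and 3, which is the order of Spry4 in the same sources. The sebocyte sums ran in that order too, at 12.92 and 13.18 in mutant sources 1 and 2 and 14.52, 15.15 and 15.38 in control sources 1, 2 and 3. In such mixed RNA, fewer cells of a type and less RNA per cell cannot be told apart, and the part of endothelial cells or sebocytes in the result for Spry4 was not tested. The T cell list (5 of 8 tested, 5 lower) summed to 10.12 and 8.48 in the mutant and 10.95 to 12.69 in the control, the dermal papilla list (6 of 10 tested, 2 lower) to 13.79 and 13.16 in the mutant and 14.38 to 14.96 in the control, the sebocyte list (6 of 6 tested, 6 lower) to 12.92 and 13.18 in the mutant and 14.52 to 15.38 in the control, and the adipocyte list (3 of 5 tested, 2 lower) to 12.15 and 11.58 in the mutant and 12.52 to 13.14 in the control. Their part in the results for Etv1, Spred2 and Phlda1 was not tested.

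The sums of the basal keratinocyte markers (6 of 6 tested, 0 lower and 1 higher) overlapped, at 17.17 and 17.29 in the mutant and 17.15 to 17.26 in the control. The higher marker, named after its values were seen, was Krt5, with a difference of 0.19 (limma adjusted p = 0.525). Suprabasal markers (5 of 6 tested, 0 lower and 0 higher) summed to 15.30 in mutant source 1 and 16.55 in mutant source 2, against 15.68 to 16.30 in the control. Hair matrix and shaft markers (6 of 8 tested, 2 lower and 0 higher) summed to 11.97 and 9.67 in the mutant, against 11.15 to 13.27 in the control. Melanocyte markers (5 of 7 tested, 2 lower) summed to 13.08 and 11.32 in the mutant and 12.27 to 13.83 in the control, and macrophage and Langerhans cell markers (4 of 7 tested, 0 lower) to 14.54 and 12.75 in the mutant and 12.47 to 13.85 in the control. The hair matrix, melanocyte, macrophage and T cell sums were thus higher in mutant source 1 than in mutant source 2, as Etv4 was. So were the dermal papilla, dermal fibroblast, adipocyte and skeletal muscle sums, while the suprabasal, basal, endothelial and sebocyte sums were lower. Some tested markers, named after their values were seen, ran against their sum. Those lower in mutant source 1 were Cd207 (macrophage list, 8.06 against 9.91 in mutant source 2), Krt33a (hair matrix) and Hey1 (dermal papilla). So were Adig and Adipoq (adipocyte) and Lum, Col3a1, Col1a2 and Vim (dermal fibroblast). Those higher were Krt5 (basal), Esam (endothelial) and Mc5r and Elovl3 (sebocyte). The other tested markers of these lists ran with their sum. The part of any of these cells in the gap of Etv4 was not tested. Dermal fibroblast markers (8 of 8 tested, 3 lower and 1 higher, median difference -0.34) summed to 16.15 and 15.75 in the mutant and 15.98 to 16.15 in the control. The lower ones, named after their values were seen, were the collagen chains Col1a1, at 11.98 ± 0.52 in mutant and 12.83 ± 0.19 in control sources (SD, n = 2 and 3), Col3a1, at 10.74 ± 0.28 in mutant and 11.08 ± 0.14 in control sources, and the surface protein Thy1, at 13.49 ± 0.12 in mutant and 13.85 ± 0.26 in control sources. The higher one, likewise named after its values were seen, was Lum, at 11.53 ± 0.02 in mutant and 10.81 ± 0.68 in control sources. Pdgfra, Col1a2, Dcn and Vim overlapped. The part of fibroblasts in the results for the lower members was not tested. Of the 5 muscle markers Mylpf was detected on 7 of 7 mutant and 9 of 9 control arrays and Acta1 on 5 of 7 and 9 of 9, neither lower nor higher in both mutant sources, and Ckm, Myh4 and Tnnt3 were detected on no array.

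The wider ERK pathway was read from 4 lists. Of the cascade itself, adaptors, Ras, Raf, MEK and their partners, 12 of 24 listed genes were tested, 3 lay below (Gab1 itself, Shc1 and Araf, the last named after its values were seen) and 1 lay above the control in both mutant sources, beside 15.3% lower and 14.1% higher over all genes, and 0 passed the limma threshold, with 1, Gab1, at an unadjusted p below 0.05, beside 12.1% of all probes. The median difference was 0.0006 beside 0.0025 over all genes. Shc1, an adaptor that links receptors to Grb2, followed Gab1 in p, with log2 levels of 13.30 ± 0.14 over the mutant sources (SD, n = 2) and 13.57 ± 0.08 over the control sources (SD, n = 3), a difference of -0.28 (limma adjusted p = 0.447).

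Other transcripts known to be induced by ERK were mixed in direction. Of 22 listed, 19 were tested, of which 5 lay below and 2 above the control in both mutant sources, beside 15.3% and 14.1% of all genes, and 0 passed the limma threshold while 5 had an unadjusted p below 0.05, beside 12.1% of all probes; the median difference was -0.11. Dusp4, a nuclear phosphatase that inactivates ERK, stood at 8.43 ± 0.63 in mutant and 11.54 ± 0.33 in control sources (SD, n = 2 and 3), a difference of -3.10 (SE 0.34, limma adjusted p = 0.132). The immediate early factor Egr1 stood at 15.21 ± 0.10 in mutant and 15.49 ± 0.09 in control sources, a difference of -0.28 (limma adjusted p = 0.369). The 2 higher genes were Dusp7 at 0.61 and Lif at 0.94, named after their values were seen.

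Of the other ETS factors, 14 of 21 listed were tested, of which 3 lay below and 0 above the control in both mutant sources, beside 15.3% and 14.1% of all genes, and 0 passed the limma threshold, with a median difference of -0.08. Fli1, an ETS factor of endothelial and blood cells, stood at 6.53 ± 0.26 in mutant and 8.03 ± 0.37 in control sources, a difference of -1.50 (SE 0.28, limma adjusted p = 0.236), beside the lower endothelial markers above. Etv2, a factor of early endothelial development, differed by -0.59 (limma adjusted p = 0.529). Of the partners of Sprouty and Spred proteins, 12 of 15 were tested, 1 was lower and 0 higher, beside the same shares of all genes, and 0 passed, with a median of 0.04. Cav1, the caveolin that binds Sprouty proteins, differed by -0.41 (limma adjusted p = 0.545), and Mknk1, a kinase activated by ERK, by -0.27 (limma adjusted p = 0.642). In the order of the 4 lists the counts at an unadjusted p below 0.05 were 1, 5, 1 and 0 of 12, 19, 14 and 12 genes tested, beside 12.1% of all probes.

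**Figure D5:**
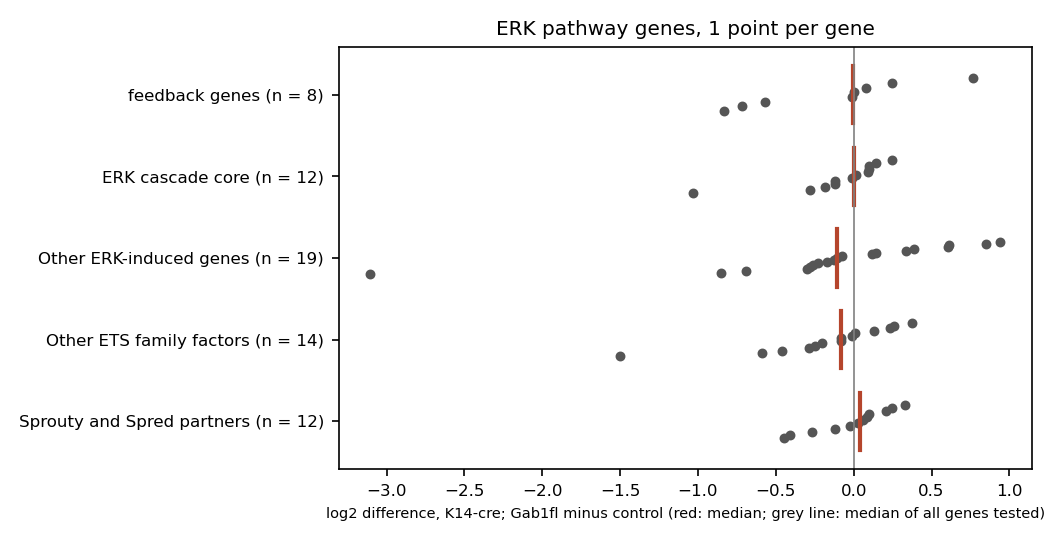
Log2 difference of mutant minus control (x axis) of each tested gene in the feedback set and in the 4 pathway lists (rows), with the list median in red and the median of all genes tested as a grey line. The list medians lay between -0.11 and 0.04, and Dusp4 at -3.10, Fli1 at -1.50 and Gab1 at -1.03 lay farthest to the left.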

How the data were processed

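RNA was hybridised to 16 Illumina bead arrays, labelled as 7 mutant and 9 control and read here as repeats of 2 mutant and 3 control sources, after it was extracted with Trizol and RNeasy columns and biotin-labelled per the labels' protocols. The deposited raw table gives each probe's intensity with its detection p-value, and GenomeStudio is the tool named in the submitters' processing notes, without a version. The deposited normalized intensity table equalled the quantile-normalized raw signal to a median of 0.00648%. A genome build is not named in the labels.

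Signals were corrected with neqc (offset 16, negative controls estimated through the detection p-value), quantile-normalized and put on the log2 scale in R 4.3.3 with limma 3.58.1. Low signals depend on this correction. Probes detected on at least 7 of 16 arrays were kept (14504, for 10013 genes). Symbols came from the platform annotation, updated through RefSeq identifiers. Where a gene had several probes, counts of genes used the one with the highest mean.

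Arrays of a labelled group correlating above 0.99 were averaged into 5 sources, and limma (lmFit and trended eBayes; residual degrees of freedom 3, prior 2.53) compared 2 mutant with 3 control sources, with Benjamini-Hochberg adjustment over all probes. The members, lists and tests were chosen with earlier results of these data known. Named were all members, Gab1, the 2 genes with the smallest p of each pathway list, and the 3 genes nearest in profile to each of the 3 members with the widest range over sources. Title numbers were not taken as pairs: same-numbered mutant and control arrays correlated between -0.39 and 0.42 in their deviations from group means, 3 of 7 pairs above 0.1. Alternatives covered background, scaling, the authors' table, filter, slide, separate arrays, source as a random block, replicate block, variance trend and omission of arrays or sources.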

Additional observations from a re-analysis of the deposited data

Results flagged for a closer look

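1 of 20 groups of arrays tested for a stray sample (9 member probes and Gab1, in the mutant and in the control) held one. For Etv5, mutant array 3 read 7.69 where the next lowest mutant array read 7.96, a gap wide against the range of the 7 mutant arrays. Chance flags about 1 in 20 groups of independent samples, a rate that does not carry over to arrays that are near copies of 2 or 3 sources. The array belongs to mutant source 1, and without it Etv5 differed by 0.05 in place of -0.01.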

How the results depend on the processing

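Etv1 (both probes), Spry4, Spred2 and Phlda1 kept their direction under each alternative that could be fitted to them, leaving out arrays and sources included. For the omission of a source this follows from their separated source means and adds no support. For both Etv1 probes and Phlda1, whose arrays did not overlap between the groups, it follows for the omission of an array and for either slide alone as well. The count of member probes past the threshold, 0 with 5 sources, was 1 with the slide as a block, 1 with 16 arrays and a random block for the source, 5 with 16 separate arrays and 5 with the title number as a replicate block over 14 separate arrays, and 0 under the others. The count of genes lower in the mutant, 3, was 1 in the fits to 16 arrays, separate or blocked by source, and 1 with the replicate block, since single arrays in place of sources were then compared. Leaving out 1 array or 1 source gave 0 member probes past the threshold, 2 to 5 genes lower and 1 to 3 genes higher. Members with differences near 0 changed sign: Spry1 was -0.12 on slide 1 alone, Spred1 was 0.034 with 75th percentile scaling, 0.0050 with cyclic loess, 0.056 on slide 1 alone and 0.0069 with 16 separate arrays, and Etv5 was 0.12 on slide 2 alone. With 1 array or source left out, Spry1 ran between -0.18 and 0.33, Spred1 between -0.054 and 0.052, Etv4 between -0.49 and 0.98 and Etv5 between -0.21 and 0.14. Over all probes the count past the threshold, 8, was 0 with the authors' table, with 75th percentile scaling, with offset 50, without background correction, with detection on all 16 arrays required, on either slide alone, without control array 2, 4 or 6 and without any 1 source, 1 with cyclic loess and 4 without a filter, so that the member count of 0 is no measure of stability. Signals of Etv1, Spry1 and Spred2 lie near background, which limits their differences. Spry4 was little brighter, with raw mutant signals of 226.5 to 315.2 beside 180.4 to 278.0 for the detected Spred2 probe. Its difference was -0.72 with background correction and -0.41 without. The cause of these shifts was not tested.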
